A study of Mus musculus with 6 samples.

Results

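The genes described here were 10 CC chemokine ligands, Ccl2, Ccl7, Ccl12, Ccl3, Ccl4, Ccl5, Ccl6, Ccl9, Ccl17 and Ccl22, out of 23462 mouse genes matched on the array. Every probe whose accession belonged to one of them was kept, which gave 11 probes, 2 for Ccl4 and 1 for each other gene. RNA came from 6 samples of BV2 cells, an immortalized microglial line of the mouse, all exposed to LPS (lipopolysaccharide, a bacterial membrane component). The 3 control samples were labelled as without PGC-1α overexpression and the 3 others as with it. The cell culture methods describe a lentivirus that carries the PGC-1α coding sequence, selection of the transduced cells with puromycin, and 500 ng/ml LPS for 6 h, without naming the arrays. Whether the control cells of the arrays carried a control virus, whether the lines were clones, and whether the samples of a group were separate cultures, is not given in the sources used here, so p-values may measure technical spread only. No array came from cells without LPS, so the comparison shows levels after LPS and not an induction by it.

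CC chemokines are small secreted proteins named for a pair of adjacent cysteines. They bind G protein-coupled receptors and draw leukocytes along a concentration gradient. Microglia and macrophages are major sources of several of them after LPS, which switches on their genes through NF-κB and related factors. Mouse Ccl2, Ccl7 and Ccl12 act on CCR2 and recruit monocytes. Ccl3, Ccl4 and Ccl5, the macrophage inflammatory proteins and RANTES, attract T cells, natural killer cells and myeloid cells, and Ccl3 and Ccl5 bind CCR1. Ccl6 and Ccl9 are CCR1 ligands that mouse myeloid cells make in abundance. Ccl17 and Ccl22 share CCR4, the receptor of type 2 helper and regulatory T cells. PGC-1α, encoded by Ppargc1a, is a coactivator best known for switching on mitochondrial genes through partners such as the ERR receptors.

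RefSeq's table of sequences around gene starts (GRCm38.p6) held 6 of the 10 ligands, Ccl22, Ccl17, Ccl12, Ccl9, Ccl6 and Ccl3. The 250 bases before the start of 3 of them are shown because these ligands differed in outcome. Ccl17 rose, its neighbour Ccl22 was never above background, and Ccl9 was bright in both groups with no change past the threshold. They lie at chr8:94810203-94810452 on the plus strand (Ccl17), chr8:94745434-94745683 on the plus strand (Ccl22) and chr11:83578637-83578886 on the minus strand (Ccl9), and are written 5′ to 3′ towards the gene. Capitals mark every match to any of 7 motifs searched on both strands: the NF-κB consensus, AP-1 (TGANTCA), an ISRE core (GAAANNGAA), GAS (TTCNNNGAA), an Sp1 box (GGGCGG), an ERR site (AAGGTCA) and a TATA box (TATAAA).
Ccl17: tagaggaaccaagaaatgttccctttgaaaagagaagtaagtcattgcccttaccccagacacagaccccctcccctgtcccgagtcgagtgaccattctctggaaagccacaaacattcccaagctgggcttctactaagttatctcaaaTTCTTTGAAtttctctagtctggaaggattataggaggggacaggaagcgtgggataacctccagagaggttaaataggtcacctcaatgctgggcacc
Ccl22: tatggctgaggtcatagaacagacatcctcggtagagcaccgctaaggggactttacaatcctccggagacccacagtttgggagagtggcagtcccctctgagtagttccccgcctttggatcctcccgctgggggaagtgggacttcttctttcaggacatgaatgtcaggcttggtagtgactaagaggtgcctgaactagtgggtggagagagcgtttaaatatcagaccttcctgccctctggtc
Ccl9: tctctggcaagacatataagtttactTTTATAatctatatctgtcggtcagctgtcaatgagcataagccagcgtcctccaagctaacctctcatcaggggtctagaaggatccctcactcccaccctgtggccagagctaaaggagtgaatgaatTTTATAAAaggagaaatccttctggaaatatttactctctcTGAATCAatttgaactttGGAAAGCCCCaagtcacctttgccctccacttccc

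The window of Ccl17 held 1 match, to GAS, 99 to 91 bases before the start. That of Ccl9 held an NF-κB match at 35 to 26 bases, an AP-1 match at 53 to 47 bases and 3 TATA matches before its start, 2 of which overlap each other, and that of Ccl22 held none. Among the other windows, Ccl6 had 1 ERR site at 88 to 82 bases, Ccl3 an ISRE core at 39 to 31 bases and Ccl12 a TATA box at 31 to 26 bases before the start. Over all 32851 windows of the table, 3.90% held the NF-κB consensus, 6.75% AP-1, 7.13% the ISRE core, 7.02% GAS, 32.7% an Sp1 box, 4.08% the ERR site and 12.4% a TATA box. These matches describe letters in a short window and are no evidence of binding. The sequences of the array probes themselves were not used here.

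Each array held 59305 spots other than controls, of which 41122 to 45165 were well above background. The signal is the background-subtracted intensity that the scanner software gave, and a scaled signal below is its log2 minus the log2 of the array's 75th percentile. All 3 overexpression arrays were dimmer than all 3 control arrays, with 75th percentiles of 856 to 1268 against 1617 to 1893. After scaling, the median log2 fold change of all 39295 probes tested was 0.25 and not 0, and after quantile normalization 0.049. Of the probes past an adjusted p of 0.05 from limma, 65.9% were higher on the overexpression arrays with the 75th percentile and 52.6% with quantile normalization. Among 6 genes often used as references, 4 were higher (Gapdh by 0.74, Ppia by 0.57 and Actb by 0.56 among them) and Tbp was lower by 1.06 with the 75th percentile, while with quantile normalization 0 were higher and 1 lower. The 10 markers of microglia and macrophages were well above background on all 6 arrays, 5 of them higher, 0 lower. With quantile normalization 0 were higher and 1 lower. Over all probes tested, 35.2% were higher and 18.2% lower with the 75th percentile, and 22.7% and 20.4% with quantile normalization. Whether the counts of either list differ from these shares was not tested. Neither probe of Ppargc1a was above background on all arrays of a group, with intensities of 9.06 to 21.8 in controls and 9.07 to 22.3 in overexpressing cells, so these probes do not check the labels. Whether they lie in the coding sequence that the lentivirus carried is not given in the sources used here.

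PGC-1α-overexpressing cells had lower levels of the monocyte chemoattractants Ccl2 and Ccl7 and of Ccl4, and higher levels of Ccl5 and Ccl17. Ccl3, Ccl6 and Ccl9 did not pass the threshold, and Ccl12 and Ccl22 were not above background on any array. By probes, 9 of the 11 were tested, and 4 of the 9 were lower and 2 higher on the overexpression arrays. Over all probes tested, 18.2% were lower and 35.2% higher by the same rule. The lower calls include both probes of Ccl4 and that of Ccl7, which was tested only through the controls, where it was high. With signal required on all 6 arrays, 3 ligand probes were lower and 2 higher, beside 6224 lower and 13056 higher of 35868 probes. The difference of these shares was not tested. With quantile normalization 5 of the 9 probes were lower and 2 higher, beside 20.4% lower and 22.7% higher over all probes. The groups did not overlap for 6 of the 9 ligand probes, a share close to the 63.6% of all probes with values on every array. The median log2 fold change of the 9 probes was -0.13, and that of all probes tested was 0.25. Relative to that overall median, the log2 fold change was -3.78 for Ccl7, -2.85 for Ccl2, -1.10 and -1.11 for the Ccl4 probes, -0.38 for Ccl6, -0.28 for Ccl9, -0.17 for Ccl3, 0.59 for Ccl17 and 0.84 for Ccl5.

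**Figure D1:**
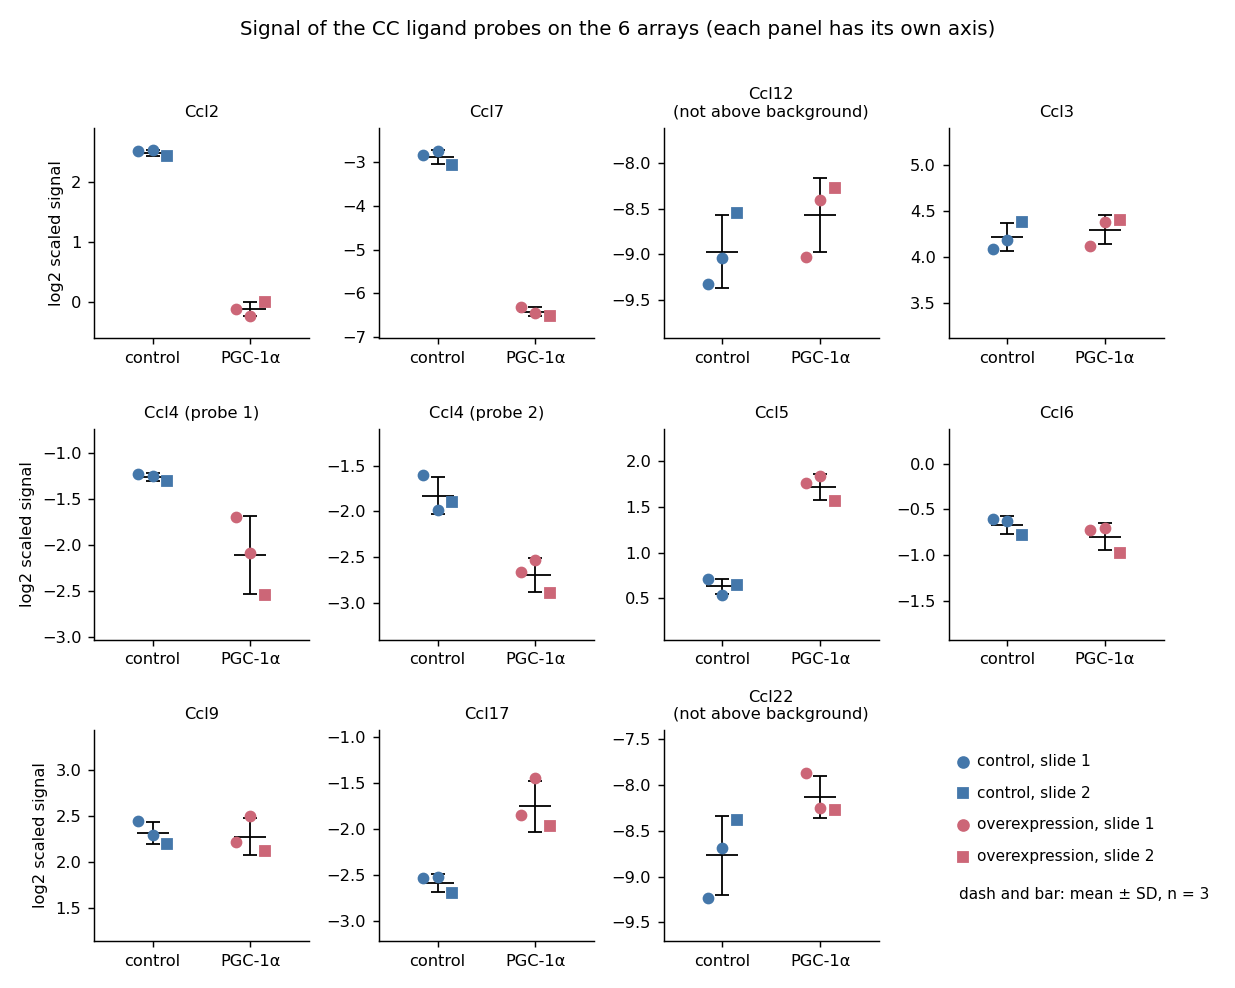
Signal of the 11 CC ligand probes on the 6 arrays, as log2 of the intensity minus the log2 of each array's 75th percentile (vertical axes, each panel with its own range), in LPS-treated control and overexpressing cells. Circles are arrays of slide 1, squares those of slide 2, and dash and bar the mean ± SD of 3 arrays; Ccl2, Ccl7 and Ccl4 lie lower and Ccl5 and Ccl17 higher on the overexpression arrays, with no overlap.

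Ccl2 (NM_011333), the main ligand of CCR2, gave a clear signal on every array. The 3 control samples read 9218, 9395 and 10251, and the 3 overexpression samples 1071, 726 and 1273. Every overexpression array was far below every control array. The scaled signal was 2.49 ± 0.049 (SD, n = 3) in control cells and -0.11 ± 0.12 (SD, n = 3) in overexpressing cells. The log2 fold change was -2.61 (standard error 0.13, adjusted p = 3.8e-05 from limma), or 6.09-fold lower. Only 0.695% of all probes tested had a lower fold change. As in any bulk RNA, fewer producing cells and less RNA per cell cannot be told apart.

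Ccl7 (NM_013654), a second CCR2 ligand is encoded next to Ccl2. Controls gave intensities of 226, 241 and 226, and overexpressing cells 14.6, 9.88 and 13.9. The probe stood well above background in all 3 control samples but in only 1 of 3 overexpression samples, so it was tested through the group in which it was high. The scaled signal fell from -2.89 ± 0.16 (SD, n = 3) to -6.42 ± 0.10 (SD, n = 3), without overlap. The log2 fold change was -3.53 (standard error 0.14, adjusted p = 2.9e-05 from limma), with overexpression signals at or near background, so that neither its size nor its p can be taken as exact. With normexp, which adds an offset before the log, it was -1.28 with the 75th percentile and -1.62 with quantile normalization, and passed the threshold in both.

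Ccl12 (NM_011331), the remaining CCR2 ligand of the list, gave intensities of 2.52, 3.10 and 5.07 in controls against 2.22, 2.52 and 4.09 in overexpressing cells. No array had it well above background, and it has no value in the authors' table of log2 values. Its level in either group therefore could not be measured.

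Ccl4 (NM_013652), a macrophage inflammatory protein, was read by both of its probes. The brighter probe read 691, 686 and 768 in controls against 359, 201 and 217 in overexpressing cells. The other had 532, 410 and 509 against 183, 148 and 171. On both probes every overexpression array lay below every control array. Their log2 fold changes were nearly equal, -0.85 (standard error 0.21, adjusted p = 0.012 from limma) and -0.87 (standard error 0.16, adjusted p = 0.0042 from limma), or 1.80-fold and 1.82-fold lower. The overexpression arrays differed more among themselves on the brighter probe, with an SD of 0.43 beside 0.039 in the controls.

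Ccl3 (NM_011337), the gene next to Ccl4 and a ligand of CCR1, had intensities of 27447, 29689 and 39506 in controls against 20088, 17794 and 26829 in overexpressing cells. These unscaled values were lower on every overexpression array, and those arrays were dimmer as a whole. The scaled signals overlapped, at 4.22 ± 0.15 (SD, n = 3) and 4.30 ± 0.16 (SD, n = 3). The log2 fold change was 0.080 with a 95% interval of -0.26 to 0.42 (adjusted p = 0.67 from limma). The call turned with the scaling. With quantile normalization Ccl3 was lower, by a log2 fold change of -0.51 (adjusted p = 0.015 from limma), and in the authors' log2 values by -0.50 (adjusted p = 0.017 from limma), each time with no overlap between the groups. No array had the spot marked as saturated.

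Ccl5 (NM_013653), a ligand of CCR1 that recruits T cells, was higher. Controls read 2645, 2366 and 2952, and overexpressing cells 3902, 3055 and 3734. Ccl5 thus exceeded the controls on each of the dimmer arrays even before scaling. The scaled signal rose from 0.63 ± 0.085 (SD, n = 3) to 1.72 ± 0.14 (SD, n = 3). The log2 fold change was 1.09 (standard error 0.14, adjusted p = 9.1e-04 from limma), or 2.12-fold. With quantile normalization it was 0.97 (adjusted p = 0.0011 from limma).

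Ccl6 (NM_009139) and Ccl9 (NM_011338), the myeloid CCR1 ligands, were measured on every array. Ccl6 had intensities of 1066, 1054 and 1101 in controls against 701, 525 and 647 in overexpressing cells. Ccl9 had 8807, 7998 and 8707 against 5388, 4832 and 5502. As for Ccl3, the unscaled values were lower on the dimmer arrays while the scaled values of the groups overlapped. The log2 fold change of Ccl6 was -0.13, with a 95% interval of -0.45 to 0.19 (adjusted p = 0.45 from limma). That of Ccl9 was -0.037, with a 95% interval of -0.39 to 0.31 (adjusted p = 0.85 from limma). It was -0.34 with quantile normalization (adjusted p = 0.072 from limma) and -0.33 in the authors' log2 values (adjusted p = 0.075 from limma). In both of these the Ccl9 groups did not overlap, so its value depends on the scaling. Changes within these intervals could not be told from none with 3 arrays a group.

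Ccl17 (NM_011332), a CCR4 ligand, was above background on all 6 arrays. Controls read 279, 283 and 291, and overexpressing cells 321, 316 and 323. The unscaled groups lay close together without overlapping, at a mean log2 difference of 0.17, and the scaled difference was larger because the overexpression arrays were dimmer. The scaled signal rose from -2.59 ± 0.10 (SD, n = 3) to -1.75 ± 0.28 (SD, n = 3). The log2 fold change was 0.83 (standard error 0.17, adjusted p = 0.0057 from limma), or 1.78-fold. It was 0.82 with quantile normalization (adjusted p = 0.0087 from limma). Ccl22 (NM_009137), the other CCR4 ligand, gave 2.69, 3.94 and 5.68 in controls against 4.94, 2.81 and 4.09 in overexpressing cells, and no array had it well above background.

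**Figure D2:**
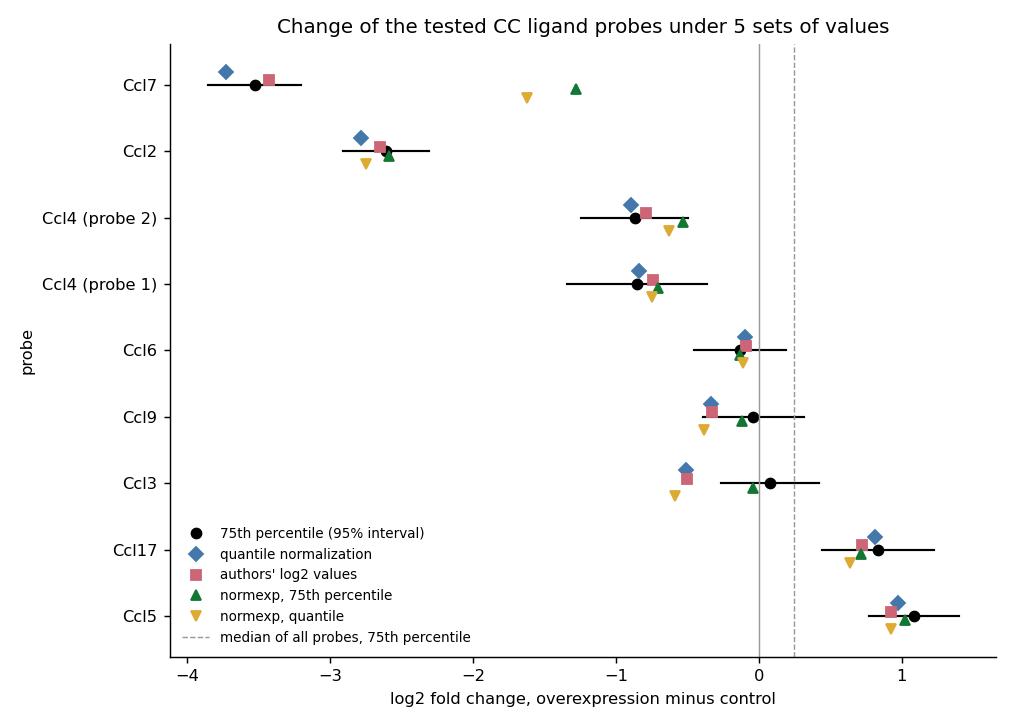
Log2 fold change (horizontal axis, overexpression minus control) of the 9 tested probes (vertical axis) with the 75th percentile and its 95% interval from limma, and under 4 other sets of values. The dashed line is the median of all probes tested, 0.25; Ccl2, Ccl4, Ccl5 and Ccl17 keep their side of 0 in each set, Ccl7 is nearer to 0 with normexp, and Ccl3 lies at 0.080 or as low as -0.59.

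**Figure D3:**
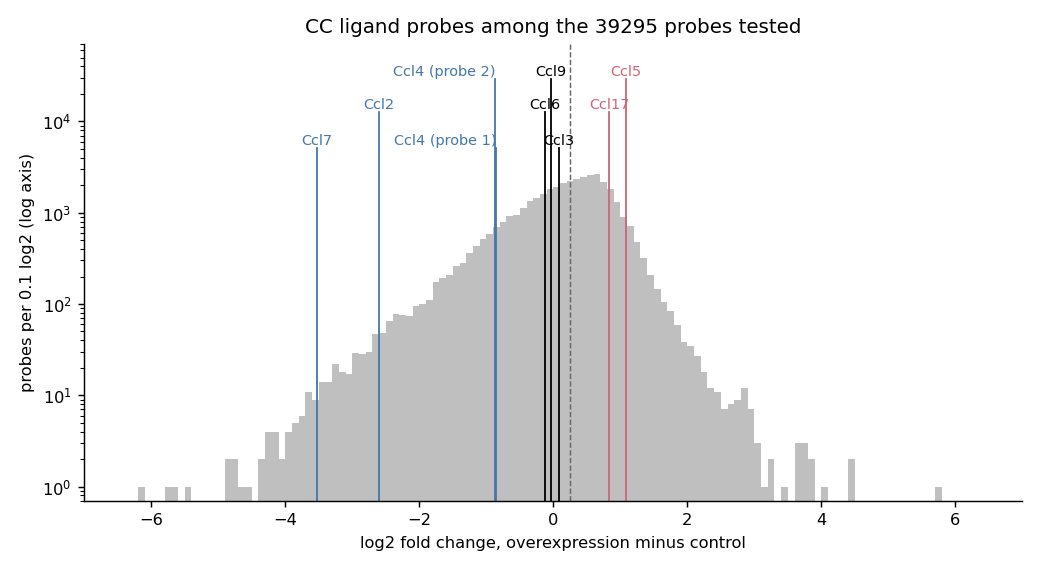
Number of probes in each 0.1 step of log2 fold change (vertical axis, log scale) against the log2 fold change, overexpression minus control (horizontal axis), for the 39295 probes tested, with the 9 CC ligand probes as lines. Blue lines passed the threshold lower, red lines higher, and black lines did not pass; the dashed line is the median, 0.25, and Ccl2 lies in the lower tail, as does Ccl7, near background in overexpressing cells.

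Slide 1 carried 2 arrays of either group, and slide 2 the remaining pair. On slide 1 alone the log2 fold change was -2.69 for Ccl2, -3.57 for Ccl7, -0.65 and -0.80 for the brighter and the other Ccl4 probe, 1.17 for Ccl5 and 0.88 for Ccl17. The pair of arrays on slide 2 gave -2.43, -3.44, -1.24 and -0.999, 0.92 and 0.73, with no test. Each change past the threshold thus had the same direction on both slides. Ccl6 was at -0.10 and -0.19, Ccl9 at -0.013 and -0.084, and Ccl3 at 0.11 and 0.019.

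How far the ligands moved apart was measured as the log2 ratio of each to Ccl2 on the same array, which no scaling of a whole array by a constant can change. Relative to Ccl2, overexpressing cells had 12.9-fold more Ccl5, a difference of 3.69 (standard error 0.16), and 10.9-fold more Ccl17, a difference of 3.44 (standard error 0.23). The difference was 2.69 for Ccl3, 2.57 for Ccl9 and 2.48 for Ccl6, with 95% intervals that together ran from 2.04 to 3.13. It was 1.76 for the brighter Ccl4 probe (95% interval 0.95 to 2.56). For Ccl7, near background in overexpressing cells, it was -0.92 (95% interval -1.27 to -0.58), but with normexp the difference was 1.31 and with normexp and quantile normalization 1.13, so the order of these neighbours depends on the background correction. For all 7 ligands the groups did not overlap in the ratio, that of Ccl7 resting on signals near background in overexpressing cells. The exact two-sided permutation p was 0.1, adjusted p = 0.1 over the 7 compared, the smallest that 3 against 3 arrays allow. Ccl2 itself was at -2.61, so the ratio of a ligand with no change of its own would rise by about as much. The own log2 fold changes were 0.080 for Ccl3, -0.037 for Ccl9 and -0.13 for Ccl6. They were -0.85 for the brighter Ccl4 probe, 1.09 for Ccl5 and 0.83 for Ccl17. The lack of overlap in the ratio therefore does not show a change in the ligand itself.

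**Figure D4:**
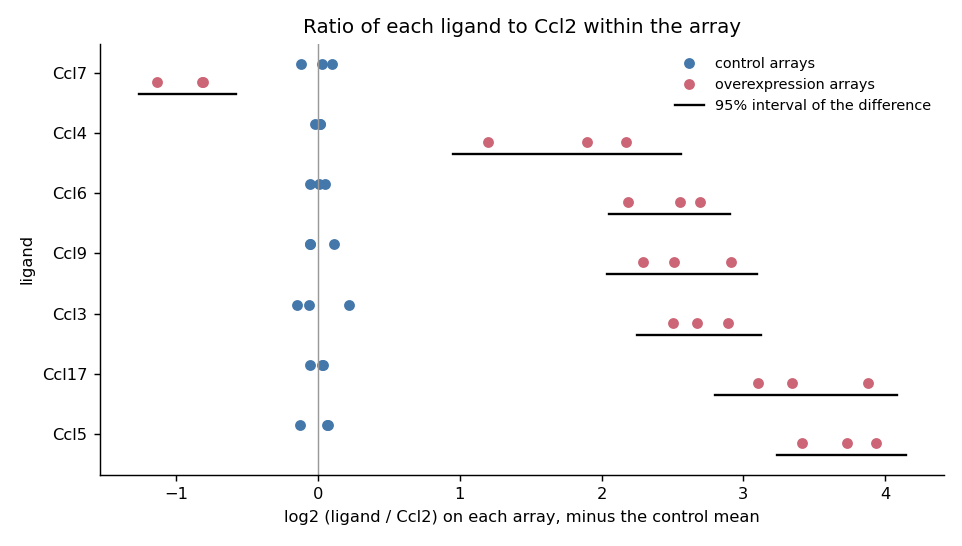
Log2 ratio of each ligand to Ccl2 on each array, minus the mean of the control arrays (horizontal axis), for 7 ligands (vertical axis). Points are arrays and black lines the 95% interval of the difference between the groups; the differences run from -0.92 for Ccl7, which is near background in overexpressing cells and turns to 1.31 with normexp, to 3.69 for Ccl5.

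With the 75th percentile, the order of the changes from lowest to highest was Ccl7, Ccl2, Ccl4, Ccl6, Ccl9, Ccl3, Ccl17 and Ccl5. With normexp Ccl2 lay below Ccl7, and with quantile normalization Ccl3 and Ccl9 lay below Ccl6. Of neighbours in this order, Ccl6 and Ccl9 did not differ beyond their spread (0.093, 95% interval -0.14 to 0.32), nor did Ccl9 and Ccl3 (0.12, 95% interval -0.45 to 0.69) or Ccl17 and Ccl5 (0.25, 95% interval -0.11 to 0.61). The step from Ccl4 to Ccl6 was 0.72 (95% interval 0.21 to 1.23) and that from Ccl3 to Ccl17 0.75 (95% interval 0.15 to 1.36). With quantile normalization Ccl9 differed from Ccl6 by -0.24, without overlap. These steps were chosen by the order itself and are a description.

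CC ligand genes lie in groups on the chromosome, and RefSeq's order of protein-coding genes was used to place them. On chromosome 11, Ccl2 and Ccl7, both lower, are followed by Ccl11, the eosinophil chemoattractant eotaxin, and then by Ccl12, Ccl8 and Ccl1, which were not tested. The log2 fold change of Ccl11 was -0.012 (standard error 0.39, adjusted p = 0.98 from limma). Its probe was dim, at 25.7, 31.4 and 33.0 in controls against 25.7, 23.6 and 10.8 in overexpressing cells. Only 2 of 3 overexpression arrays had it well above background, so whether Ccl11 changed could not be settled. Elsewhere on chromosome 11, Ccl5, Ccl9, Ccl6, Ccl3 and Ccl4 stand in a row. Its ends moved in opposite directions, Ccl5 higher and Ccl4 lower, while the 3 genes between them did not pass with the 75th percentile. With quantile normalization Ccl3 was lower too (-0.51, adjusted p = 0.015 from limma). The difference of Ccl4 from its neighbour Ccl3 was -0.93, with a 95% interval that includes 0 (-1.90 to 0.038). With quantile normalization it was -0.32 and in the authors' log2 values -0.24, and the groups then overlapped. On chromosome 8, Ccl22 and Ccl17 flank Cx3cl1, which was at -0.13 (adjusted p = 0.57 from limma).

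**Figure D5:**
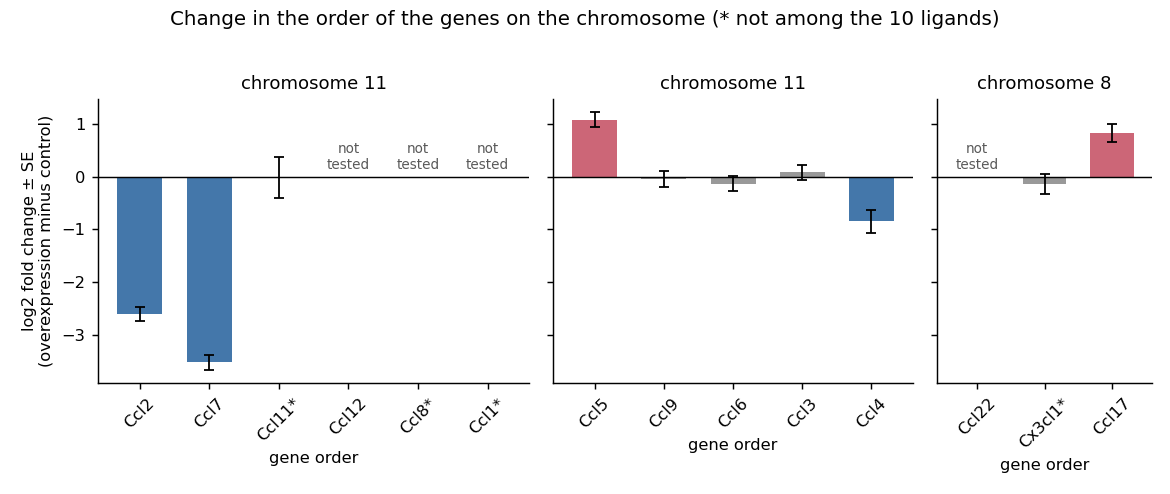
Log2 fold change ± standard error (vertical axis, overexpression minus control) of CC ligand genes in their order along 2 stretches of chromosome 11 and 1 of chromosome 8 (horizontal axes, gene order and not distance). Blue bars passed the threshold lower, red bars higher and grey bars did not pass, and an asterisk marks genes outside the 10 ligands; Ccl5 (1.09) and Ccl4 (-0.85) are the ends of one row.

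The remaining CC ligands of the mouse had 11 of 12 genes on the array, of which 8 were tested by their brightest tested probe. Of these 5 were higher, 1 lower and 2 did not pass, with a median log2 fold change of 0.75, beside 35.2% higher, 18.2% lower and a median of 0.25 over all probes. Ccl27a, a skin chemokine, was at 1.28 (adjusted p = 0.0016 from limma), Ccl26, of the eotaxin group, at 1.00, and Ccl19, a ligand of CCR7, at 0.85. The probe of Ccl26 was dim, at 29.6, 35.5 and 35.4 in controls against 46.8, 33.4 and 48.3 in overexpressing cells. Another of the 5 was as dim, at 39.1, 35.2 and 32.8 against 44.2, 30.1 and 41.9. For both the unscaled groups overlapped, so the sizes cannot be taken as exact. Ccl24, an eosinophil chemoattractant, was at -0.81 (adjusted p = 0.0026 from limma). The counts were the same with quantile normalization.

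Of 14 CC and atypical chemokine receptors, 10 were tested, and 2 were lower, 4 higher and 4 did not pass, shares near the 18.2% and 35.2% of all probes. Ccr1 and Ccr2, the receptors of several of the ligands above, were not well above background on any array. Ccr4, the receptor of Ccl17 and Ccl22, is named here after its values were seen. It was at -0.42 on its brighter probe (adjusted p = 0.069 from limma) and lower by the test on the other, at -1.31 (adjusted p = 0.0055 from limma). Ccr7, which guides cells to lymph nodes, was at -4.09, and Ccrl2, which binds chemerin, at -2.47. Ackr1, a chemokine-binding protein of red cells and vessels, was at 1.02, and Ccr8, a receptor of T cells, at 0.88. With quantile normalization 3 receptors were lower and 2 higher. The added lower one was Ccr4, whose brighter probe then passed, at -0.64 (adjusted p = 0.011 from limma), and Ccr8 did not pass (adjusted p = 0.076 from limma).

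Among 16 transcription factors that act on chemokine genes or in the LPS response, 2 were lower, 1 higher and 13 did not pass by their brightest tested probe, beside 18.2% lower and 35.2% higher of all probes. With quantile normalization 3 were lower and 0 higher, the added one being Cebpb, a myeloid factor, at -0.60 (adjusted p = 0.032 from limma). Irf3, the interferon regulatory factor downstream of the TRIF adaptor, was at -1.64 on its brighter probe and -1.70 on the other (adjusted p = 2.2e-04 and 1.4e-04 from limma), and Irf8, a myeloid factor, at -0.85. Nfkb2, the p100 subunit of NF-κB, was at 0.64, its other probe at 0.084 (adjusted p = 0.61 from limma), and it did not pass with quantile normalization (adjusted p = 0.52 from limma). By their brightest tested probes, Nfkb1, Rela, Rel and Relb ranged from -0.0079 to 0.33 and did not pass. The other probe of Rela was at -0.42 and did not pass either (adjusted p = 0.0501 from limma). Those of Irf1 and Irf7, counted above as not passing, did pass, at -0.47 and 0.49 (adjusted p = 0.023 and 0.029 from limma). Of 6 factors that bind AU-rich or stem-loop elements in chemokine mRNAs, 4 were tested and 0 passed in limma by their brightest tested probe, with log2 fold changes from -0.39 to 0.36. At an unadjusted p under 0.05 the count was 1, and with quantile normalization it was 0 either way. The other probe of Hnrnpd passed, at 0.63 (adjusted p = 0.017 from limma), and that of Zfp36l1, also at 0.63, did not (adjusted p = 0.082 from limma).

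Markers of other cell types gave signal too. Over all probes 35.2% were higher and 18.2% lower. The counts that follow are by the brightest tested probe. Of 4 tested fibroblast markers 3 were higher and 1 lower. Of 4 tested neuron markers 2 were higher and 1 lower, and of 4 tested T cell markers 2 were higher and 1 lower. The lower fibroblast marker, Pdgfra, was at -1.63 on that probe but at 1.13 on another (adjusted p = 0.0011 from limma). Map2, a neuron marker counted as not passing, was at 1.54 on another probe (adjusted p = 0.0033 from limma). Of the astrocyte markers 2 of 3 tested were higher, of endothelium 1 of 2, and of dendritic cells 1 of 3 was lower. Of oligodendrocytes and B cells 0 of 4 and 0 of 1 passed in limma (1 and 1 at an unadjusted p under 0.05). Mbp, an oligodendrocyte marker, did pass on its other tested probes, in opposite directions, at 0.47 and -0.58 (adjusted p = 0.034 and 0.014 from limma). With quantile normalization 2 fibroblast, 1 neuron and 1 T cell marker were higher and 1 of each lower, and of endothelium 1 was higher and 1 lower. The sums that follow are unscaled, and the overexpression arrays were dimmer as a whole. The neuron markers summed to intensities of 39283 to 56386 in controls and 42263 to 52821 in overexpressing cells. Most of this was Snap25, at 35479 to 52544 and 40658 to 51087, on the 1 probe tested of its 2. Tubb3 read 3236 to 3666 and 1226 to 1596, and Rbfox3 and Map2 were dim, at or below 22.7 and 171. The fibroblast markers summed to 24844 to 29963 and 27373 to 33674, and for both lists the ranges overlap. The dendritic cell markers summed to 4479 to 5384 and 2419 to 3837. After scaling, Itgax and Zbtb46, the brightest of them, were at 0.063 and 0.018 and did not pass, while the dimmer Flt3 was at -1.44. The T cell markers summed to 988 to 1162 and 1040 to 1132, with no separation of the groups. Syt1, Slc1a3, Ms4a1, Cdh5 and Kdr, markers of neurons, astrocytes, B cells and vessels, were not well above background on any array. Their part in the ligand values was not tested.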

How the data were processed

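RNA of LPS-treated BV2 cells was measured on 6 Agilent 1-colour arrays, 3 per group. Groups, replicate numbers and slides came from the sample labels, and the LPS dose and time from the cell culture methods. Agilent Feature Extraction 11.5.1.1, run by the authors, gave each spot a background-subtracted intensity in the green channel, deposited without normalization between arrays. The labels name Cy3 and the labelling protocol Cy5. The authors also deposited log2 values of 42110 probes, normalized in GeneSpring by steps not given in the sources used here, with column medians of 8.29.

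From the intensities, log2 was taken and each array's 75th percentile over 59305 spots subtracted. Outlier spots were dropped and repeated spots averaged. Accessions were matched to RefSeq symbols (GRCm38) for 33767 of 56605 probes. The array was designed on an older assembly, so no gene coordinates are given apart from RefSeq's sequence windows. Probes with values on at least 2 arrays per group and well above background on all 3 arrays of a group were tested with limma 3.58.1 in R 4.3.3 (lmFit, eBayes, two-sided, Benjamini-Hochberg over 39295 probes, threshold 0.05). A gene in a list was counted by its brightest tested probe, and at most 4 genes past the threshold with the largest change were named per list. Some genes of these lists are not reported here. Ratios to Ccl2 were compared by exact permutation over arrays. Tables used Python 3.11.15 with pandas 2.3.3, and plots matplotlib 3.10.9. On simulated arrays of the 39295 probes, 60% of probes changed by a log2 of 1 and 98% of those changed by 2 were recovered. There 172 probes were called, 8.14% of them falsely, while 21018 passed in the data, so these shares may not hold for the data.

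The ligands, the lists and the tests were chosen with earlier results of these data known. Alternatives were quantile normalization, the median, normexp with an offset of 50, the authors' log2 values, other filters, 1 probe per gene, the slide or replicate number as a block, slide 1 alone, a variance trend with robust estimation, and leaving out each array.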

Additional observations from a re-analysis of the deposited data

How the results depend on the processing

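Ccl2, Ccl5, Ccl17 and both Ccl4 probes kept their direction and passed the threshold in every alternative that tested them, and Ccl7 in every one but the filter that needs signal on all 6 arrays, under which it could not be tested. Their log2 fold changes ranged from -2.79 to -2.43 for Ccl2, -3.73 to -1.28 for Ccl7, -1.24 to -0.63 and -0.999 to -0.53 for the Ccl4 probes, 0.92 to 1.17 for Ccl5 and 0.64 to 0.94 for Ccl17. The count of lower ligand probes was 3 to 5, the 5 coming with Ccl3, and that of higher ones 2 throughout. Ccl3 turned to -0.51 with quantile normalization, -0.030 with the median, -0.50 in the authors' log2 values, and -0.041 and -0.59 after normexp followed by the 75th percentile or by quantiles. Leaving out 1 array gave 0.013 to 0.17 for Ccl3 and -0.15 to 0.044 for Ccl9. Ccl7 relative to Ccl2 turned to 1.31 and 1.13 under the 2 normexp settings. Over all probes, 21018 passed, 15639 to 21093 with 1 array left out, and 9637 with 1 probe per gene, where fewer are tested.

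The deviations of samples with the same replicate number correlated across probes at -0.21 and 0.003 for numbers 1 and 2, both on slide 1, and at 0.59 for number 3, whose arrays share slide 2. The numbers were therefore not taken to pair the samples. With the replicate block 4 ligand probes were lower, 2 higher and 22815 probes passed in all. Signal over background limits Ccl7, Ccl12 and Ccl22.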
